A study of Homo sapiens with 4 samples.

Results

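The transcription factor NRF2 and 35 genes of its antioxidant and detoxification programme, the aldo-keto reductases among them, were followed through the 4 RNA sequencing libraries of A549, a human lung adenocarcinoma cell line. Members were chosen by gene symbol, with earlier results of these data known, and needed a mean of at least 30 normalized counts over the 4 libraries. All 36 symbols were found in the 4 files and all 36 passed, out of 12742 genes that passed and 42113 gene models in the files. The lowest means were 51.7 for CES1, 55.5 for CBR3 and 107 for GSTM3, and no member lay below the minimum.

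The groups were LIMA1 shRNA cells given nutlin-3a, control shRNA cells given nutlin-3a, untreated LIMA1 shRNA cells and untreated control shRNA cells, with 1 library each. The sample titles shorten the lines to siLIMA1 and siCont, and the protocol calls both shRNA. Both lines were A549 cells carrying a stably integrated lentivirus, whose short hairpin RNA targeted LIMA1 or was a negative control. The sources used here do not say whether either line was a clone. Nutlin-3a, used at 10 µM, blocks the binding of MDM2 to p53, and RNA was taken at 24 h. The stated question was what loss of LIMA1, an actin-binding LIM-domain gene, does to transactivation by p53.

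NRF2, encoded by NFE2L2, is held low in most cells by KEAP1, an adaptor that presents it to a CUL3 ubiquitin ligase. Oxidants and electrophiles modify KEAP1, NRF2 then accumulates, pairs with small MAF proteins and binds antioxidant response elements in DNA. Its targets make glutathione, reduce thioredoxin, supply NADPH, store iron and detoxify quinones, carbonyls and drugs. A549 cells are known for an inactivating KEAP1 mutation and a constantly active NRF2 programme. Neither the mutation nor the activity of NRF2 was measured here.

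The antioxidant response element is the sequence that defines NRF2 binding, and its core, TGACNNNGC, was searched on both strands in RefSeq promoter windows of 300 bases (250 before to 50 after the start of the transcript, build GRCh38.p14, gene's strand). The deposited values carry no coordinates, and the submitters' processing notes name hg19. Windows were found for 28 of the 36 members; PRDX1, GSR, AKR1B10, CBR3, HMOX1, FTH1, CES1 and TRIM16L had none. At least 1 core was present in 11 of these 28 genes (39.3%), against 19.5% of 9157 measured genes and 16.1% of all genes with a window. Counted by window, a core was present in 30% of the members' 40 windows, against 13.3% of all 35116 windows. A match is a run of letters and not a measured binding site. The first 3 promoters are shown because GPX2, EPHX1 and CYP4F11 had the highest differences with nutlin-3a, in both lines, among members that averaged over 1000 normalized counts. Capitals mark the core, on either strand, here and in the shorter stretches that follow.
GPX2 (chr14:64942696-64942995, minus strand): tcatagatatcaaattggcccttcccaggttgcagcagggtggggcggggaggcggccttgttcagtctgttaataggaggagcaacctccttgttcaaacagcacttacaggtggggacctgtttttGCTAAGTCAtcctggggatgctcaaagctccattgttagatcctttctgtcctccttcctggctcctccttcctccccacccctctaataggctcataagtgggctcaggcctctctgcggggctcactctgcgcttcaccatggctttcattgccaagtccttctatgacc
EPHX1 (chr1:225825104-225825403, plus strand): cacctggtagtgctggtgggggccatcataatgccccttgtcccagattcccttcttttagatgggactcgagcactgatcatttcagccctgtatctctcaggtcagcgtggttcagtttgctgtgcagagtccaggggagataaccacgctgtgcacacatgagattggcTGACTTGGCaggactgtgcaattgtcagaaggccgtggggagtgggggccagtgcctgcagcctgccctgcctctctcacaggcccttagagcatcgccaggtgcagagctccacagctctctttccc
CYP4F11 (chr19:15934818-15935117, minus strand): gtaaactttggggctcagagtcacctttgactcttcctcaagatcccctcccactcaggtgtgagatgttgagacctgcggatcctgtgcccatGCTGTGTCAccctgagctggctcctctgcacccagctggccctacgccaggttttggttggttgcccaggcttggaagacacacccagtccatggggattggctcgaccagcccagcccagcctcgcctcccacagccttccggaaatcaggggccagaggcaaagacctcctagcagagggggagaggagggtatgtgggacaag
The 6 stretches below come from members that also hold a core but differed by less than 0.5 with nutlin-3a in both lines, and so set the element beside a small difference.
GCLM (window chr1:93909381-93909680, minus strand): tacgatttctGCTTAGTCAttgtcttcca
TXNRD1 (window chr12:104286782-104287081, plus strand): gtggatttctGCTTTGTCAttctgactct
ME1 (window chr6:83431002-83431301, minus strand): tctcctgccaTGACTCAGCgcttctcgca
KEAP1 (window chr19:10502722-10503021, minus strand): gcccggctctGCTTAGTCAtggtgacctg
PIR (window chrX:15493284-15493583, minus strand): gccgcgaagcGCTGAGTCAcggtgaggct
CBR1 (window chr21:36069774-36070073, plus strand): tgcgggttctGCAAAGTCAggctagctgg
Counted from the transcript start, the first base of the core lies at -122 in GPX2, -78 in EPHX1 and -156 in CYP4F11. GCLM at -34 and KEAP1 at -31 hold the same letters, GCTTAGTCA. EPHX1 has 3 windows and CYP4F11 has 2, and in each gene 1 window held the core. NQO1, NFE2L2, GCLC, SQSTM1 and the AKR1C genes were among the members whose windows lacked the core. A core outside the windows could not be found by this search, so its absence here does not mean that a gene has none. PGD and MGST1 were the other members with a core.

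Libraries held 15150677 to 16744858 fragments. LIMA1 stood at 133 normalized counts with LIMA1 shRNA and nutlin-3a, against 866 with control shRNA and nutlin-3a, and at 68.3 against 416 in untreated cells. The p53 target CDKN1A was 40.9-fold higher with nutlin-3a in LIMA1 shRNA cells and 32.0-fold higher in control shRNA cells. The epithelial keratins KRT8 and KRT18 were at 55419 normalized counts or more in all 4 libraries, whereas EPCAM, another epithelial marker, was at 31.1 to 229. The blood markers summed to 3.22 to 11.9, the endothelial markers to 3.22 to 12.9 and the fibroblast markers to 20.4 to 82.9 normalized counts, CD3E was at 0 in every library, and PTPRC and DCN were at 0 in all but the untreated control one. The part of these other cell types in the results was not tested. With bulk RNA, fewer cells that express a gene and less of its RNA per cell cannot be told apart. There were no replicates, so no difference below was tested, and each compares libraries. Intervals of single genes cover counting error only. Intervals of medians are order-statistic intervals over the member genes, which are not independent of each other. They describe the spread among genes and hold no error of the libraries. All differences below are of log2(normalized count + 1).

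Per length of transcript, many of the members were among the most abundant messages of these cells. In untreated control shRNA cells 21 of the 36 lay in the top 5 percent of the 11484 measured genes with a known transcript length. FTL, the light chain of the iron store ferritin, led with 108529 normalized counts per kb. It was followed by AKR1B10, a reductase of retinal and other carbonyls, at 35688 and the ferritin heavy chain FTH1 at 20271. AKR1C2 (16308), the gut and airway glutathione peroxidase GPX2 (15949) and AKR1C3 (15656) came next and differed little from each other. NQO1, which reduces quinones by transferring electrons in pairs and is the usual readout of NRF2 activity, stood at 13389 per kb. The regulators themselves were lower, NFE2L2 at 681 and KEAP1 at 510.1 per kb, and the lowest members were CBR3 at 59.7, the glutathione transferase GSTM3 at 31.2 and CES1 at 6.11 per kb. The place of AKR1C1 (1567 per kb) rests on a transcript model of 6705 bases, against 1807 for AKR1C3.

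**Figure D1:**
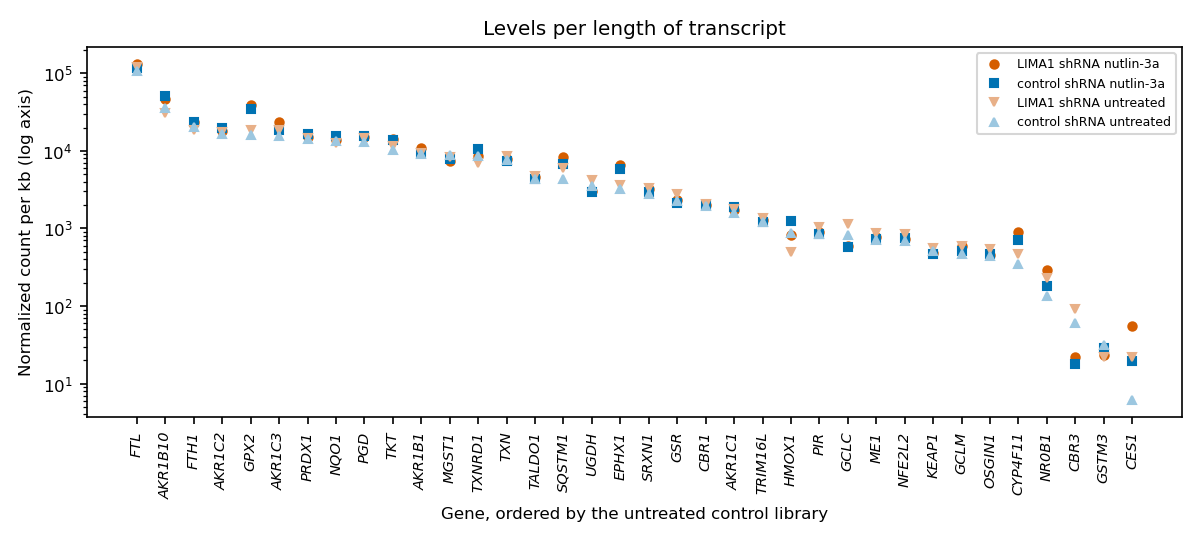
Normalized counts per kb of transcript (log axis) of the 36 members in the 4 libraries, ordered by the untreated control shRNA library; each symbol is 1 library. FTL is highest and CES1 lowest in untreated control cells, and the symbols of most genes lie close together.

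Together the 36 genes took 4.10% of all normalized counts in LIMA1 shRNA cells with nutlin-3a and 4.17% in control shRNA cells with nutlin-3a. In untreated cells the share was 3.49% with LIMA1 shRNA and 3.42% with control shRNA. The share was thus larger in both nutlin-3a libraries than in both untreated ones. It weighs the most abundant genes most. The median member differed with nutlin-3a by 0.04 in LIMA1 shRNA cells and by 0.15 in control shRNA cells. Several of these genes have close relatives, and counts cannot be assigned with certainty where transcripts are alike. Of the 50-base words in the AKR1C2 transcript, 52.2% also occur in another gene, nearly all of them in AKR1C1; the figure was 28.7% for AKR1C1, 12.1% for AKR1C3 and 17.7% for AKR1B10, whose nearest copy is AKR1B15. It was 78.7% for FTH1, which has many pseudogenes, 57.0% for TRIM16L, a copy of part of TRIM16, and 34.3% for CES1 against its pseudogenes. SRXN1 shared 84.7% with AL121758.1, and PRDX1 28.6%, mostly with MMACHC. The overlapping models MRNIP, CBR3-AS1 and AP000688.1 shared 50.7% of the words of SQSTM1, 35.7% of CBR3 and 33.4% of CBR1. The sources used here do not say whether strand was used in counting. Of the values between 0.5 and 30000 fragments, those of SQSTM1, CBR1 and PIR included at least 1 that was not whole; 8 members, NQO1, TXNRD1, GPX2, TKT, AKR1B10, AKR1C2, AKR1C3 and FTL, had values above that range that were not checked.

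With nutlin-3a, a few detoxification and glutathione genes were higher in both lines, and most of the NRF2 programme differed little. In LIMA1 shRNA cells GPX2 and CES1 were higher by at least 1 (2 of 36), against 7.29% of all measured genes, and CBR3 was lower by at least 1 (1 of 36), against 6.08%. At a size of 0.5, 6 members were higher, against 18.4% of all genes, and 2 lower, against 17.9%. In control shRNA cells GPX2, CYP4F11 and CES1 were higher by at least 1 (3 of 36, background 5.54%) and CBR3 lower (1 of 36, background 5.64%); at 0.5 the counts were 6 higher (background 16.3%) and 2 lower (background 16%). The shares of members called higher at 1 and at 0.5, 5.56% and 16.7% with LIMA1 shRNA and 8.33% and 16.7% with control shRNA, were near those of all genes. The median member differed by 0.04 with LIMA1 shRNA (order-statistic interval -0.10 to 0.30) and by 0.15 with control shRNA (0.03 to 0.27), beside -0.02 in each line for all measured genes. With LIMA1 shRNA 20 of 36 members (55.6%) lay above 0, against 48.5% of all genes, and with control shRNA 26 of 36 (72.2%), against 48.5%.

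**Figure D2:**
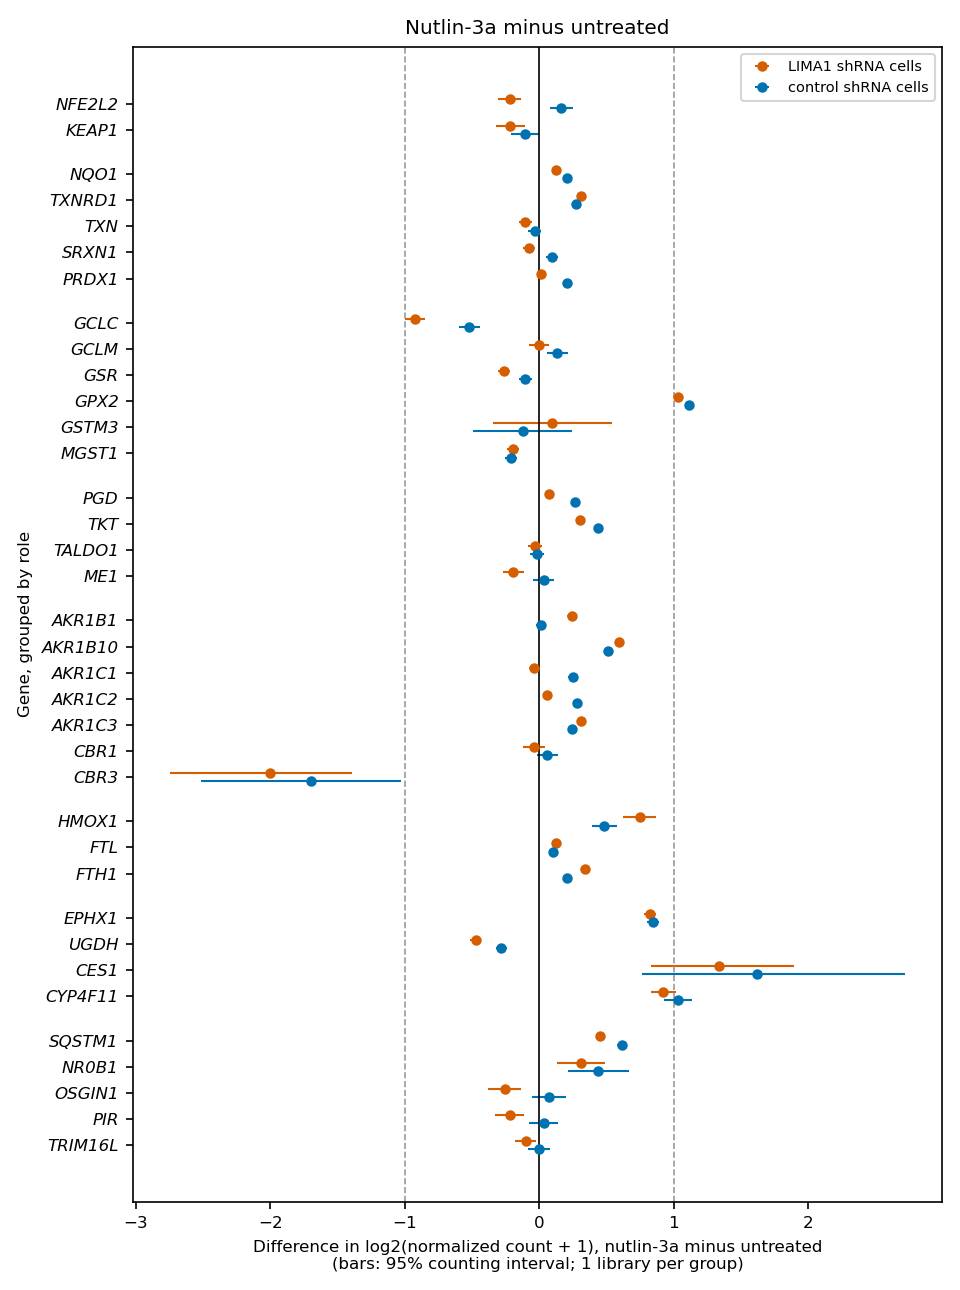
Difference in log2(normalized count + 1), nutlin-3a minus untreated, for each member in LIMA1 shRNA and control shRNA cells; points are the difference between 2 libraries, bars the 95% counting interval and dashed lines a size of 1. GPX2, EPHX1, CES1 and CYP4F11 lie near or beyond 1 in both lines, and CBR3 and GCLC lie below 0 in both.

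The nutlin-3a contrasts of the lines share no library, and over the 36 members their differences had a Pearson's r of 0.96 and a Spearman's rho of 0.85. Over all 12742 genes these values were 0.88 and 0.87. They describe genes within 4 libraries and are no test. Most members were abundant, and no value for genes of like abundance was computed. Of the members, 19 lay above 0 in both lines and 9 below 0 in both, which is 77.8% with the same direction, against 86.0% of all genes. GPX2, AKR1B10, EPHX1, CES1 and CYP4F11 were higher by at least 0.5 in both lines (5 of 36, or 13.9%, against 13.4% of all genes). GCLC and CBR3 were lower in both (2 of 36, or 5.56%, against 13.0% of all genes). With upper-quartile or median-of-ratios scaling GCLC in control shRNA cells fell short of this size.

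Among the glutathione genes GPX2 and GCLC differed in opposite directions. GPX2 uses glutathione to reduce hydrogen peroxide and lipid hydroperoxides in epithelium. It stood at 38142 normalized counts in LIMA1 shRNA cells with nutlin-3a and 34108 in control shRNA cells with nutlin-3a, against 18680.2 in untreated LIMA1 shRNA cells and 15789.5 in untreated control shRNA cells. GPX2 was thus higher with nutlin-3a by 1.03 in LIMA1 shRNA cells (1.004 to 1.06) and by 1.11 in control shRNA cells (1.08 to 1.14). GCLC encodes the catalytic subunit of glutamate-cysteine ligase, the enzyme that limits glutathione synthesis, and GCLM its modifier subunit. GCLC was at 2265 in LIMA1 shRNA cells and 2213 in control shRNA cells with nutlin-3a, against 4302 in untreated LIMA1 shRNA and 3170.0 in untreated control shRNA cells. Its differences were -0.93 in LIMA1 shRNA cells (-1.001 to -0.85) and -0.52 in control shRNA cells (-0.60 to -0.44). GCLM had 2916 and 2510.5 with nutlin-3a in LIMA1 shRNA and control shRNA cells, and 2914 and 2284 in the untreated LIMA1 shRNA and control shRNA cells, differences of 0.0008 (-0.07 to 0.08) and 0.14 (0.06 to 0.22). The ratio of GCLC to GCLM counts, not corrected for length, was therefore 0.777 in LIMA1 shRNA cells and 0.881 in control shRNA cells with nutlin-3a, against 1.48 and 1.39 in the untreated cells of the same lines. GSR, which regenerates reduced glutathione, was at -0.26 in LIMA1 shRNA cells and -0.10 in control shRNA cells, and the microsomal transferase MGST1 at -0.20 and -0.21. GSTM3, a cytosolic glutathione transferase, had 95.4 and 116 with nutlin-3a and 89.1 and 126 without, in LIMA1 shRNA and control shRNA cells each time, and both counting intervals included 0.

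The detoxification genes EPHX1, CYP4F11 and CES1 were higher with nutlin-3a in both lines, while UGDH was lower. EPHX1, the microsomal epoxide hydrolase, had 11631 normalized counts in LIMA1 shRNA cells and 10373 in control shRNA cells with nutlin-3a, against 6572 and 5768 in the untreated cells of the same lines. The differences were 0.82 (0.78 to 0.87) and 0.85 (0.80 to 0.89). CYP4F11, a cytochrome P450 that hydroxylates fatty acids and vitamin K, had 2813 and 2219 with nutlin-3a in LIMA1 shRNA and control shRNA cells, against 1484 and 1084 untreated. Its differences were 0.92 (0.83 to 1.01) and 1.03 (0.93 to 1.14). CES1, a carboxylesterase that hydrolyses drugs and esters, was rare. It had 111 in LIMA1 shRNA cells and 39.7 in control shRNA cells with nutlin-3a, against 43.5 in untreated LIMA1 shRNA and 12.3 in untreated control shRNA cells. The differences of 1.34 (0.83 to 1.90) and 1.62 (0.76 to 2.72) rest on 104 against 44.0 and 40.0 against 13.0 fragments. Its level in control shRNA cells with nutlin-3a lay below that in untreated LIMA1 shRNA cells. UGDH, which makes UDP-glucuronic acid for glucuronidation, was lower by less than the size of 0.5, at -0.47 and -0.28 in LIMA1 shRNA and control shRNA cells.

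**Figure D3:**
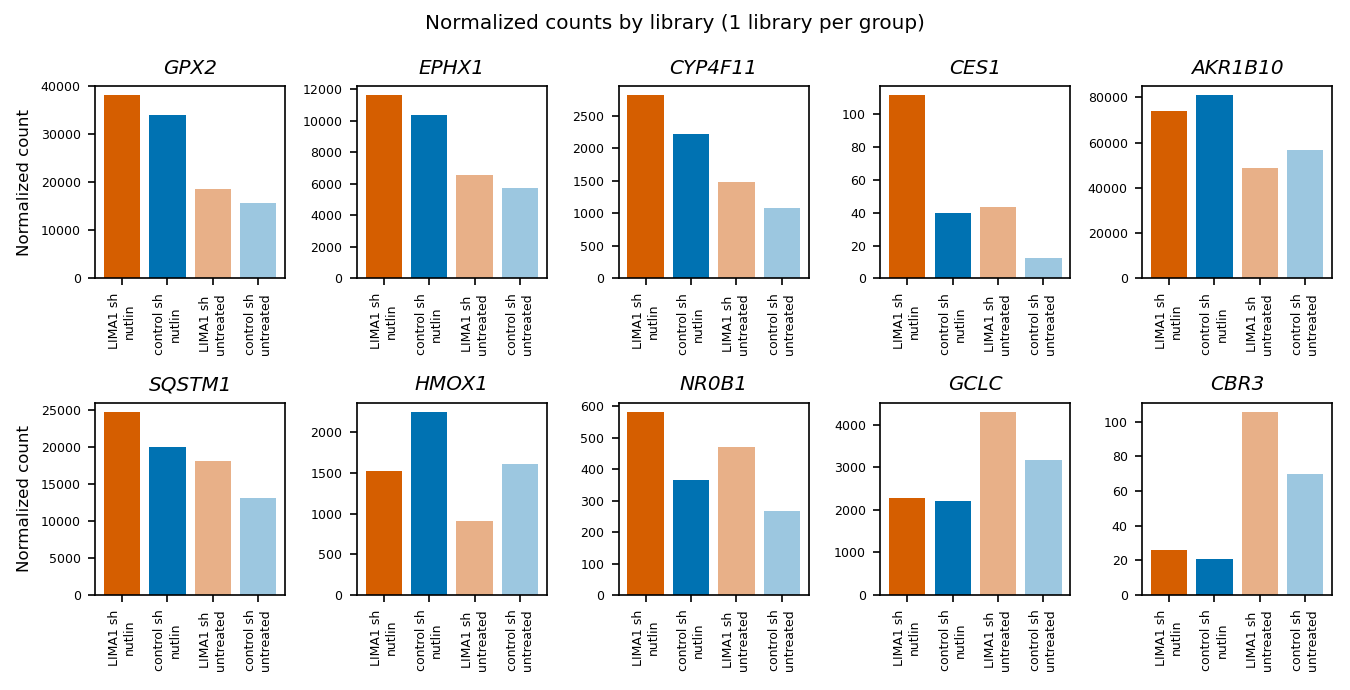
Normalized counts of 10 members that differed by at least 0.5 in some contrast of 2 libraries, in each of the 4 libraries (bars start at 0; 1 library per group, so no error is shown). Within each line GPX2, EPHX1 and CYP4F11 are higher with nutlin-3a than untreated, and GCLC and CBR3 are lower. HMOX1 is lower with LIMA1 shRNA in each treatment.

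The aldo-keto and carbonyl reductases, which use NADPH to reduce aldehydes and ketones, differed among themselves. AKR1B10 had 73999 normalized counts in LIMA1 shRNA cells and 80986 in control shRNA cells with nutlin-3a, against 48907 and 56744 in the untreated cells of the same lines. Its differences were 0.60 (0.58 to 0.61) and 0.51 (0.50 to 0.53). Aldose reductase, AKR1B1, was at 0.24 in LIMA1 shRNA cells and 0.01 in control shRNA cells. The steroid and prostaglandin reductase AKR1C3 was at 0.31 and 0.24, whereas its relatives AKR1C1 and AKR1C2 were at -0.04 and 0.06 in LIMA1 shRNA cells and at 0.25 and 0.29 in control shRNA cells. AKR1C1 turned to 0.04 in LIMA1 shRNA cells with upper-quartile scaling. CBR1 and CBR3 are carbonyl reductases of the short-chain dehydrogenase family. CBR3 had 25.7 and 20.8 normalized counts with nutlin-3a in LIMA1 shRNA and control shRNA cells, against 106 and 69.8 untreated. These were the lowest differences of any member, -2.00 (-2.74 to -1.39) and -1.70 (-2.52 to -1.03), on 24.0 against 107 and 21.0 against 74.0 fragments. CBR1, far more abundant, was at -0.04 and 0.06, and its negative value turned to 0.04 with upper-quartile scaling.

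The heme and iron genes were higher with nutlin-3a in both lines. HMOX1, the inducible heme oxygenase that frees iron from heme, had 1519 normalized counts in LIMA1 shRNA cells and 2253 in control shRNA cells with nutlin-3a, against 904 and 1610.0 untreated. The differences were 0.75 (0.63 to 0.87) and 0.48 (0.39 to 0.58), and within each line the nutlin-3a library was higher. Across lines the treatments overlapped, since its count in LIMA1 shRNA cells with nutlin-3a was below that in untreated control shRNA cells. FTH1 was at 0.34 and 0.20 and FTL at 0.12 and 0.10 in LIMA1 shRNA and control shRNA cells.

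In the remaining groups 1 member, SQSTM1 in control shRNA cells, differed by 0.5 or more with nutlin-3a. Of the thioredoxin and quinone genes, TXNRD1, the reductase of thioredoxin, had 34168 and 41342 normalized counts with nutlin-3a in LIMA1 shRNA and control shRNA cells, against 27504 and 34154 untreated, differences of 0.31 and 0.28. NQO1 had 40001.7 and 45121 with nutlin-3a in the same order of lines, against 36683.5 and 38988 untreated, differences of 0.12 (0.10 to 0.15) and 0.21 (0.19 to 0.23). Thioredoxin itself, TXN, was at -0.10 in LIMA1 shRNA cells and -0.03 in control shRNA cells, and the value in control shRNA cells turned to 0.03 with upper-quartile scaling. The sulfiredoxin SRXN1 was at -0.08 and 0.10 and the peroxiredoxin PRDX1 at 0.01 and 0.21 in LIMA1 shRNA and control shRNA cells. Of the NADPH genes the transketolase TKT was at 0.30 and 0.44 and the 6-phosphogluconate dehydrogenase PGD at 0.07 and 0.27. Transaldolase, TALDO1, was at -0.03 and -0.01, both above 0 with upper-quartile scaling, and malic enzyme, ME1, at -0.19 and 0.03. SQSTM1, an autophagy receptor that also binds KEAP1, had 24718.5 and 19943 with nutlin-3a in LIMA1 shRNA and control shRNA cells, against 18090.2 and 13036 untreated, differences of 0.45 (0.42 to 0.48) and 0.61 (0.58 to 0.64). NR0B1, an orphan nuclear receptor that represses transcription, was at 0.31 and 0.44. OSGIN1, PIR and TRIM16L were at -0.26, -0.22 and -0.10 in LIMA1 shRNA cells and at 0.07, 0.03 and -0.0014 in control shRNA cells; the TRIM16L value in control shRNA cells was above 0 under each other scaling.

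The regulators differed little between treatments. NFE2L2 had 2076 normalized counts in LIMA1 shRNA cells and 2177 in control shRNA cells with nutlin-3a, against 2416 in untreated LIMA1 shRNA and 1942 in untreated control shRNA cells. It was at -0.22 (-0.31 to -0.13) in LIMA1 shRNA cells and 0.16 (0.08 to 0.25) in control shRNA cells, and the treatments overlapped across lines. KEAP1 had 1409 and 1403 with nutlin-3a, against 1634 and 1507 untreated, differences of -0.21 and -0.10. Because NRF2 is controlled mainly at the protein, these message levels do not measure its activity.

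Between the lines, few members differed by much, and most were slightly higher with LIMA1 shRNA in untreated cells. CES1 was higher by at least 1 (1 of 36, background 1.04%) and none was lower (0 of 36, background 2.05%). At 0.5, CES1, NR0B1 and CBR3 were higher (3 of 36, background 4.96%) and HMOX1 lower (1 of 36, background 7.71%). The median member was at 0.18 (0.10 to 0.28), beside 0.02 for all measured genes and 0.06 for the 3802 genes with a mean of at least 1000. In all, 29 of 36 members (80.6%) lay above 0, against 54.4% of all measured genes; among members with a mean of at least 1000 the count was 26 of 32 (81.2%), against 62.5% of the 3802.

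With nutlin-3a the same comparison gave a smaller shift. CES1 was again higher by at least 1 (1 of 36, background 1.26%) and none lower (0 of 36, background 1.94%); at 0.5, CES1 and NR0B1 were higher (2 of 36, background 5.81%) and HMOX1 lower (1 of 36, background 6.74%). The median was 0.06 (-0.02 to 0.12), beside 0.03 for all genes, and 23 of 36 members (63.9%) lay above 0, against 54.6%. Each of the other scalings moves all genes by nearly the same amount. The distance of the members' median from that of all genes, 0.03, therefore could not change. With upper-quartile scaling and with equal totals 19 of 36 members lay above 0, and with median-of-ratios scaling 21. The share of all genes above 0 was not counted under these scalings. The contrasts between lines in untreated and in nutlin-3a cells share no library but compare the same cell lines. Over the 36 members Pearson's r between them was 0.92 and Spearman's rho 0.71, against 0.49 and 0.58 over all genes. These values are not alike in abundance: 32 of 36 members had a mean of at least 1000, against 3802 of 12742 genes. No value for genes of like abundance was computed. The rare gene CES1, highest in both contrasts, weighs heavily on Pearson's r. The direction was the same in both treatments for 28 members, 22 above 0 and 6 below (77.8%), against 72.2% of all genes. A lasting difference between the lines and an effect of the shRNA cannot be told apart.

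**Figure D4:**
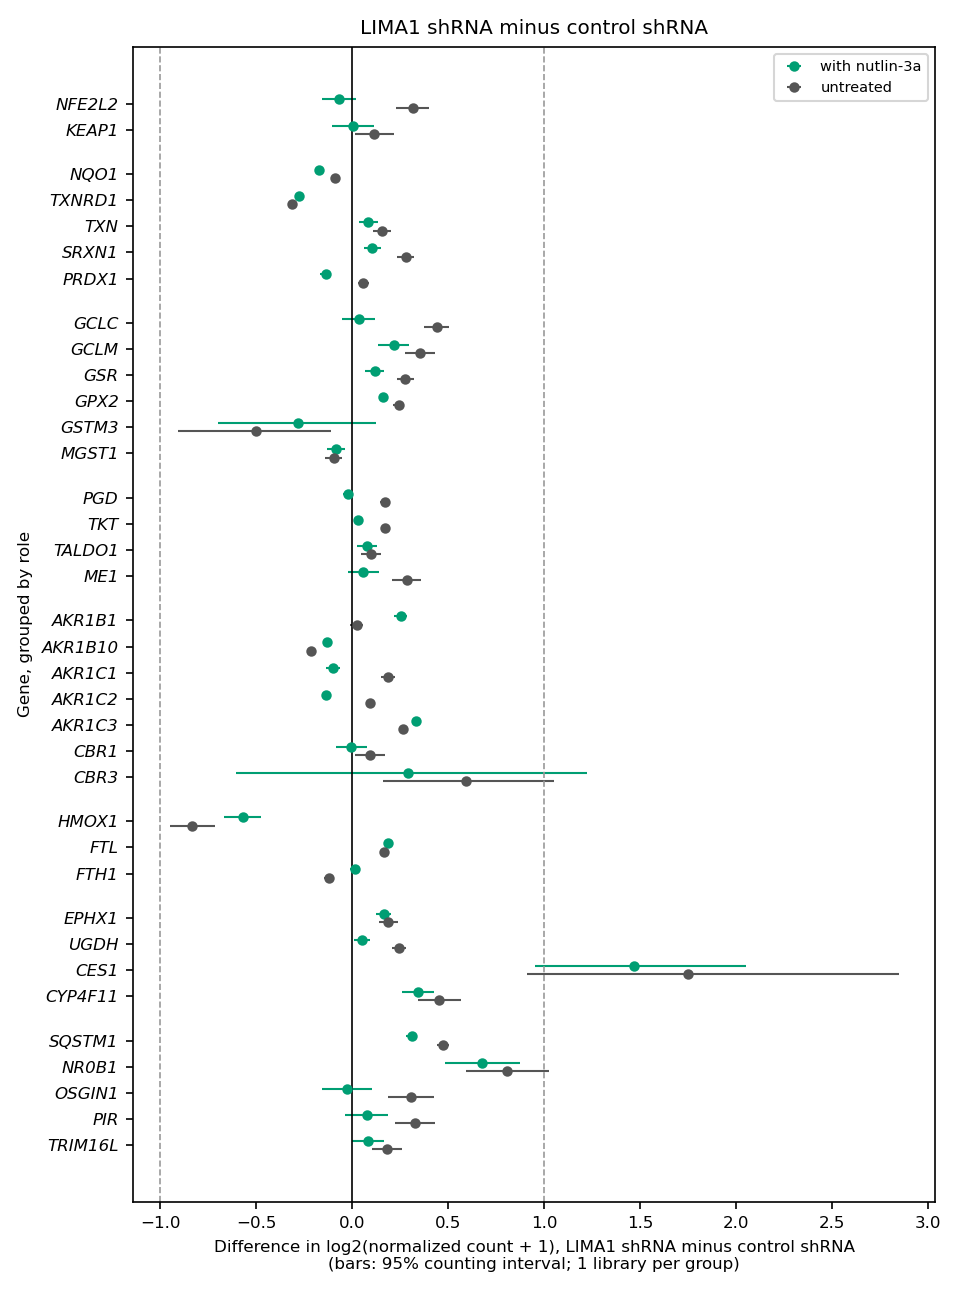
Difference in log2(normalized count + 1), LIMA1 shRNA minus control shRNA, for each member with nutlin-3a and untreated; points are the difference between 2 libraries, bars the 95% counting interval and dashed lines a size of 1. CES1 and NR0B1 lie to the right and HMOX1 to the left of 0 in both treatments.

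CES1, NR0B1 and HMOX1 were past 0.5 between the lines in both treatments, CES1 by the most. HMOX1 was lower with LIMA1 shRNA, at -0.57 (-0.67 to -0.47) under nutlin-3a and -0.83 (-0.95 to -0.72) in untreated cells, at the 5.54th and 3.11th percentile of all measured genes. NR0B1 had 583 normalized counts with LIMA1 shRNA and 364 with control shRNA under nutlin-3a, and 470.0 against 269 in untreated cells. Its differences were 0.68 (0.49 to 0.87) and 0.80 (0.59 to 1.02). CES1 was higher by 1.47 (0.95 to 2.05) and 1.75 (0.91 to 2.85), at the 99.5th and 99.7th percentile. AKR1C3 was higher by 0.33 and 0.27, and TXNRD1 lower, at -0.27 and -0.31, with nutlin-3a and in untreated cells. SQSTM1 (0.31 and 0.47), CYP4F11 (0.34 and 0.45) and GCLM (0.22 and 0.35) were above 0 in both treatments.

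Some members were higher with LIMA1 shRNA in untreated cells and close to the control under nutlin-3a. GCLC was at 0.44 (0.38 to 0.51) untreated and at 0.03 (-0.05 to 0.12) with nutlin-3a, a value that turned to -0.02 with equal totals. NFE2L2 was at 0.32 (0.23 to 0.40) untreated and -0.07 (-0.16 to 0.02) with nutlin-3a, and OSGIN1, an oxidative stress growth inhibitor, at 0.30 and -0.03. ME1 was at 0.28 and 0.06, and PIR, an iron-binding nuclear protein, at 0.33 and 0.08.

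The difference with nutlin-3a was a little lower for most members where LIMA1 was knocked down. This contrast uses the same 4 libraries as the others and is not independent of them. None of 36 had a response difference of at least 1 in either direction (background 1.27% higher and 0.816% lower), and none reached 0.5 (background 5.17% and 4.05%). The median response difference, LIMA1 shRNA minus control shRNA, was -0.12 (-0.19 to -0.07), beside 0.01 for all measured genes, and 9 of 36 members (25%) lay above 0, against 52% of all genes. The lowest were GCLC at -0.41, NFE2L2 at -0.38 and OSGIN1 at -0.33, and the highest HMOX1 at 0.26, AKR1B1 at 0.23 and GSTM3 at 0.22. GSTM3 had only 89 to 134 fragments a library, and its nutlin-3a counting intervals included 0 in both lines. All 3 heme and iron genes lay above 0. None of the 2 regulators, the 4 NADPH genes or the 4 detoxification genes did. The 5 genes SQSTM1, NR0B1, OSGIN1, PIR and TRIM16L also lay below 0. Some of these values were small, with EPHX1 and TALDO1 at -0.02, and no counting interval is given for this contrast. The CES1 value of -0.28 turned above 0 with a pseudocount of 10 or 30.

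**Figure D5:**
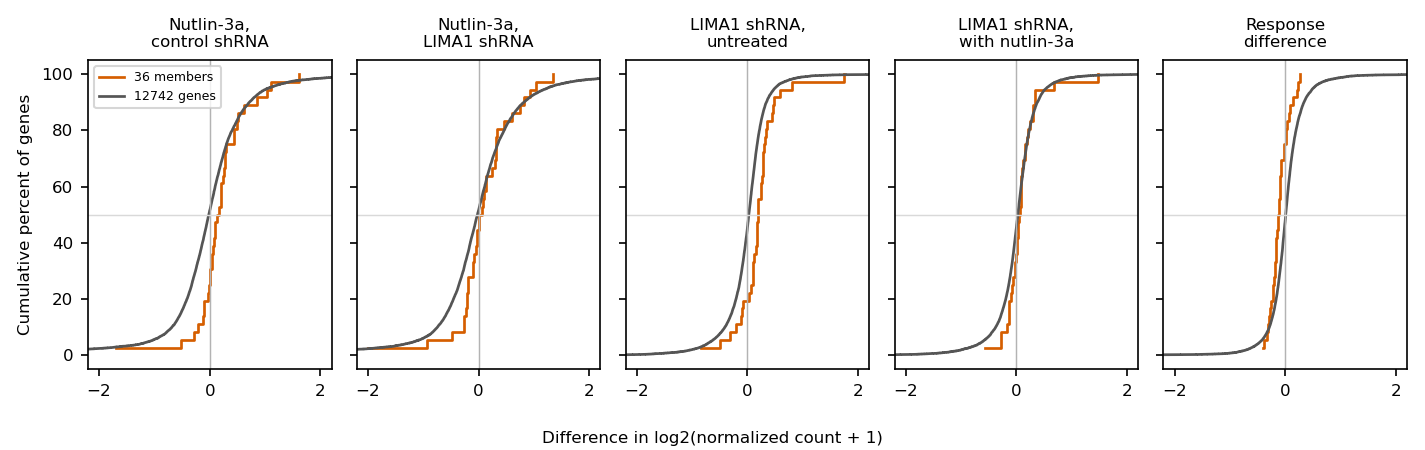
Cumulative percent of the 36 members and of all 12742 measured genes against the difference in log2(normalized count + 1), in the 4 contrasts of 2 libraries and for the response difference (LIMA1 shRNA minus control shRNA). The members' curve lies right of the other at its middle for LIMA1 shRNA in untreated cells (medians 0.18 and 0.02) and left of it for the response difference (-0.12 and 0.01).

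Other genes of the same pathways, taken from lists of pathway membership, were set beside the shares of all genes. These lists were also chosen with earlier results of these data known, so the comparisons are descriptive only. Of 30 measured glutathione and thioredoxin genes outside the members, 2 were higher and 3 lower by at least 1 with nutlin-3a in LIMA1 shRNA cells, against 7.29% and 6.08% of all genes, and 1 was higher and 1 lower in control shRNA cells, against 5.54% and 5.64%. GPX1, the widespread cytosolic glutathione peroxidase, had 6270.1 and 5282 normalized counts with nutlin-3a in LIMA1 shRNA and control shRNA cells, against 1899 and 1749 untreated, differences of 1.72 and 1.59. The glutaredoxin GLRX was at 1.02 and 0.96, and CHAC2, which degrades glutathione, at -1.17 and -1.25. Its relative CHAC1 had 602 normalized counts in untreated LIMA1 shRNA cells, against 37.7 in untreated control shRNA cells, and 85.8 against 56.6 with nutlin-3a. TXNIP, which binds thioredoxin, was at -0.59 and -0.61 with LIMA1 shRNA under nutlin-3a and untreated. SLC7A11, the cystine importer that feeds glutathione synthesis, was at 10451 with LIMA1 shRNA against 6628 with control shRNA in untreated cells, a difference of 0.66 (0.61 to 0.70).

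Of 14 other measured aldo-keto and carbonyl reductases, 1 was higher and 1 lower by at least 1 with nutlin-3a in each line, beside the same shares of all genes. AKR1B15, the nearest relative of AKR1B10, had 429 and 396 with nutlin-3a in LIMA1 shRNA and control shRNA cells, against 152 and 174 untreated, differences of 1.49 and 1.18. DHRS2, a short-chain reductase, was at -2.07 and -2.27. AKR1C4, the liver member of the AKR1C cluster, was higher with LIMA1 shRNA in both treatments, at 98.6 against 19.9 with nutlin-3a and 128 against 40.5 untreated. Of 10 other measured glutathione transferases the nutlin-3a median was 0.32 in LIMA1 shRNA cells and 0.33 in control shRNA cells, beside -0.02 for all genes, and 8 of 10 were above 0 in each line, against 48.5% of all genes. GSTCD was the lowest, at -1.02 and -1.42, and GSTZ1 was at 0.68 and 0.64. GSTO2 was at -1.46 with LIMA1 shRNA under nutlin-3a, on 22.5 against 63.5 normalized counts. Of 11 other NADPH genes none differed by 1 in any contrast, and IDH2 was at -0.61 and -0.58 with LIMA1 shRNA under nutlin-3a and untreated. IDH1 went the other way in untreated cells, at 0.53 (0.48 to 0.58) with LIMA1 shRNA. RPIA, of the pentose phosphate pathway, was at -0.83 and -0.77 with nutlin-3a in LIMA1 shRNA and control shRNA cells. Of 15 measured regulators and partners of NRF2 none differed by 1. Their nutlin-3a median was -0.24 in LIMA1 shRNA cells and -0.28 in control shRNA cells, beside -0.02 for all genes, with 4 and 5 of 15 lower by 0.5, against 17.9% and 16% of all genes, and 0 higher, against 18.4% and 16.3%. The small MAF gene MAFF was at -0.83 in LIMA1 shRNA cells and -0.94 in control shRNA cells with nutlin-3a.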

How the data were processed

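RNA sequencing of 4 libraries, 1 per group by the sample titles, was read from the processed values. bcl2fastq 1.8.3, Bowtie2 2.0.12, Cuffnorm 2.2.1 and hg19 are named with no role or order, per the submitters' processing notes; no gene annotation is named there. Per gene, the authors deposited a signal. Its steps show fragments multiplied by 1 constant in each library (1 fragment was worth 1.07, 0.993, 0.990 and 0.943 in LIMA1 shRNA with nutlin-3a, control shRNA with nutlin-3a, LIMA1 shRNA untreated and control shRNA untreated) and not divided by length. In each library 86.2% to 87.1% of values from 0.5 to 30000 fragments were whole to within 0.1. That is below the 95% set for recovering reads, and no count model was fitted. Fragment numbers and counting intervals rest on values divided by the constant of each library and rounded. They are approximate where values were not whole or not checked.

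Genes with a mean of at least 30 were kept (12742). Differences are log2(value + 1), which understates the change of low genes. With 1 library per group no test was made. A size of 1 was used for calls and 0.5 beside it. Counting intervals are exact Clopper-Pearson 95% intervals for the fragments of 2 libraries, turned into log2 ratios without the pseudocount; reads carry no molecular identifiers, so they cover counting error only. Transcript lengths and the 50-base words came from GENCODE 29 principal transcripts. Values in each library were to be given for members past 0.5 in a contrast of 2 libraries and for NFE2L2, KEAP1 and NQO1, with other members by examples; of each other list, the 2 highest and 2 lowest past 0.5 per contrast could be named. Members and lists were chosen with earlier results of these data known. The differencing was tested on simulated data. Alternatives were other pseudocounts, scalings, filters and sizes, and leaving out genes with values that were not whole. Scripts ran in Python 3.11.15 with scipy 1.17.1, pandas 2.3.3, numpy 2.4.6 and matplotlib 3.10.9.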

Additional observations from a re-analysis of the deposited data

Results flagged for a closer look

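A few members lay on opposite sides of 0 in the 2 lines or the 2 treatments, each by more than counting error. None of these differences of direction was tested, and 1 library stood for each group. The share of all genes that do so was not counted. Counting intervals are narrow for abundant genes and hold no error of the libraries. With nutlin-3a, NFE2L2 was at -0.22 in LIMA1 shRNA cells and 0.16 in control shRNA cells, and SRXN1 at -0.08 and 0.10. Between the lines, LIMA1 shRNA minus control shRNA, PRDX1 was at -0.14 with nutlin-3a and 0.06 untreated, AKR1C1 at -0.10 and 0.19, and AKR1C2 at -0.14 and 0.09. With upper-quartile scaling SRXN1 in LIMA1 shRNA cells stood at -0.0007 and PRDX1 in untreated cells at 0.003, both within counting error of 0, so these 2 opposite directions depend on the scaling; with equal totals PRDX1 in untreated cells stood at 0.01. AKR1C1 and AKR1C2 share much of their sequence, so their values are not independent of each other.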

How the results depend on the processing

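No paired analysis was possible because each group has 1 library. The median differences of the members kept their direction and stayed inside their intervals under every alternative run (2 other pseudocounts, 3 scalings, 2 filters and leaving out 3 members with values that were not whole). The low members CES1 and CBR3 made up part of the counts, beside the abundant GPX2 and CYP4F11. With a pseudocount of 30, the nutlin-3a counts were 1 higher in LIMA1 shRNA cells and 2 higher and 0 lower in control shRNA cells, and 0 were higher with LIMA1 shRNA untreated. With means of at least 150, which leaves 33 members and removes both genes, 1 member was higher with nutlin-3a in LIMA1 shRNA cells and 2 in control shRNA cells, 0 were lower in either line, and 0 were higher with LIMA1 shRNA in either treatment. A log2 size of 0.5 gave 6 higher and 2 lower with nutlin-3a in each line, 2 higher and 1 lower with LIMA1 shRNA under nutlin-3a and 3 higher and 1 lower untreated. A log2 size of 2 gave 0 in all of these. Upper-quartile scaling changed the sign of 11 of 180 member values, all of them under 0.05 in size, and none of the 23 past 0.5. Upper-quartile scaling and median-of-ratios scaling each brought the size for GCLC with nutlin-3a in control shRNA cells under 0.5. The CES1 response difference of -0.28 turned to 0.02 with a pseudocount of 10 and to 0.22 with one of 30. Depth limits CES1, CBR3 and GSTM3, which had 13.0 to 134 fragments a library.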
